A study of Mus musculus with 48 samples.

Results

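Expression was compared between day 6 and day −2 of adipocyte differentiation in 3T3-L1 cells that had received siRNA against PPARγ. The comparison was defined by siRNA and day alone, so it took in the 3 PPARγ siRNA arrays of day −2 and the 3 of day 6, which are 6 of the 48 arrays, and all 24613 probes on them. 3T3-L1 is a single mouse fibroblast line that turns into fat-storing cells when treated with hormones at confluence. Before differentiation the cells were transfected, with a lipid reagent, either with a 50 nM pool of siRNAs against Pparg or with the same dose of a pooled non-targeting control siRNA. Cells under both siRNAs had the same course of cocktails. It was 0.5 mM IBMX with 0.25 µM dexamethasone for 48 h from confluence (day −2) and 5 µg/ml insulin with 1 µM of the PPARγ agonist rosiglitazone for 48 h from day 0. The control course is thus itself a full adipogenic treatment. Day −2 is the start of the first cocktail. The change to day 6 thus takes in both cocktails and the time in culture, which cannot be told apart. Biotin-labelled cRNA made from total RNA was hybridised to Illumina mouse BeadChips, with 3 independent biological replicates per condition and the siRNA applied to a whole, unsorted culture.

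PPARγ is a nuclear receptor that binds DNA as a heterodimer with the retinoid X receptor RXR and is activated by fatty acid derivatives and by drugs such as rosiglitazone. It is the central transcription factor of fat cell formation, acting after the early factors C/EBPβ and C/EBPδ and together with C/EBPα to switch on genes of triglyceride storage, fatty acid uptake and adipokine secretion. During the process preadipocytes leave the cell cycle and give up much of their fibroblast cytoskeleton and extracellular matrix programme.

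From day −2 to day 6 under PPARγ siRNA, genes for secreted adipocyte products and lipid storage rose, several of them from below background, matrix and matrix-remodelling genes rose, and genes for cell division and glycolysis fell. The lipid programme ended below its control level, and the division genes that fell were not called as different in change between the courses. This difference was called lower for 12 of 25 glycolysis probes. It was called higher for 11 of 34 matrix protease and inhibitor probes and 2 of 44 collagen probes. Of 58 matrix glycoprotein and basement membrane probes 9 were higher and 1 lower. A difference in change need not be a difference in day 6 level. Signals are given as log2 of the background-corrected, scaled bead intensity. A probe was called when its Bonferroni-adjusted p in limma, over all probes, was at most 0.05, and it was above background on an array when its detection p was under 0.01.

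Pparg itself, the siRNA target, was the first gene examined. Its brightest probe read 7.71, 7.58 and 7.75 on the PPARγ siRNA arrays of day −2 (replicates 1 to 3) and 9.81, 9.81 and 9.70 on those of day 6. Every day 6 array thus lay above every day −2 array, a rise of 2.10 ± 0.14 (SD of 3 pairs), or 4.28-fold (limma SE 0.11, adjusted p = 5.8e-16). In the control course the same probe went from a mean of 10.09 to 12.11, a rise of 2.02. Relative to control the level was thus −2.41 on day −2 and −2.33 on day 6 (log2), and the difference between the courses, 0.07, was not called. The second Pparg probe was above background on 0 of 3 arrays on day −2 and 2 of 3 on day 6, at least 1.11-fold higher, and was no longer called without replicate 1 (adjusted p = 0.817) or replicate 2 (0.0741). The third Pparg probe was above background on no PPARγ siRNA array of either day, with a difference of 0.39 that was not called, whereas it rose by 2.79 in the control course (difference between the courses −2.41, called, but not without replicate 1, adjusted p = 0.198). No probe position was used here, so which transcripts the probes read was not examined.

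**Figure D1:**
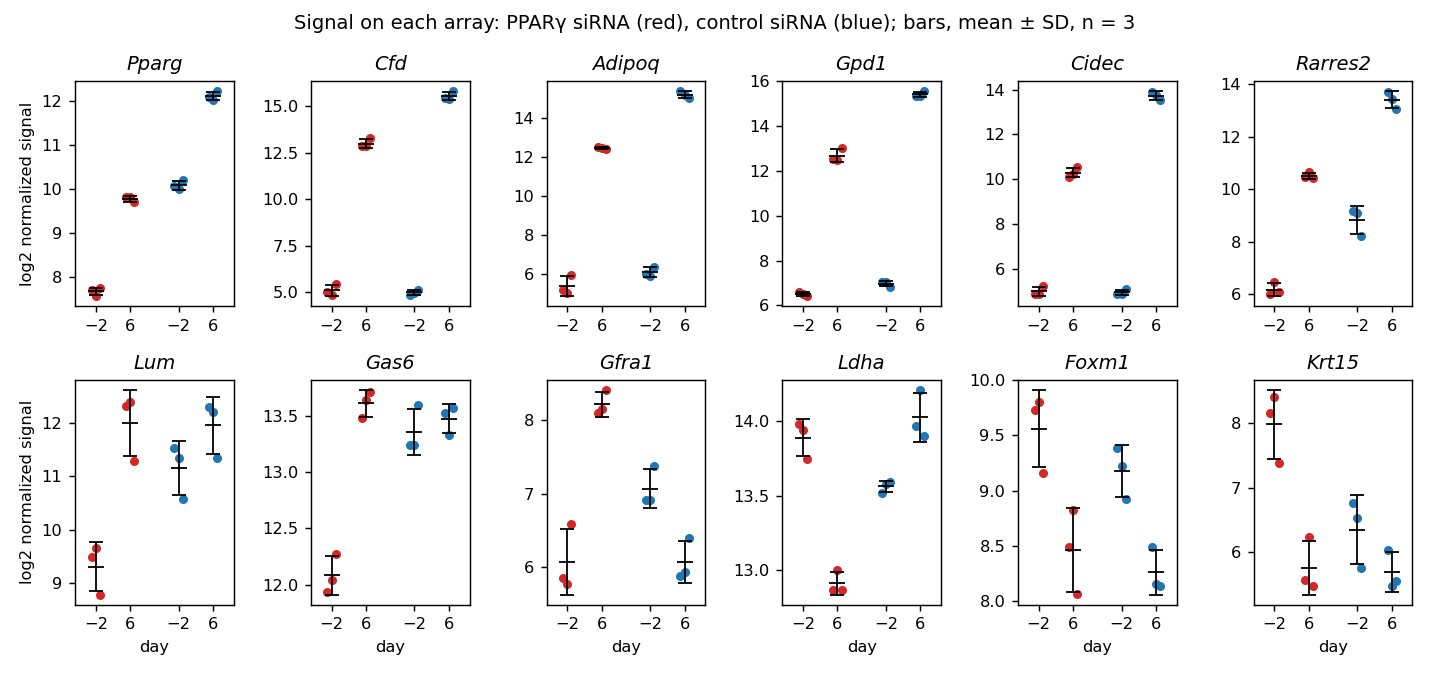
Log2 normalized signal on each array for 12 genes on day −2 and day 6 under PPARγ siRNA (red) and control siRNA (blue), with mean ± SD of 3 arrays. The bright Pparg probe climbs by 2.10 and 2.02 in the courses from starting levels of 7.68 and 10.09, Gfra1 rises under PPARγ siRNA and falls in control, Ldha falls under PPARγ siRNA, and Foxm1 falls in both.

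Of the 24613 probes, 1084 were called in the PPARγ siRNA course, from 990 genes, which is 4.4% of the probes tested. Of these, 612 probes (2.49% of those tested) rose and 472 (1.92%) fell. All of them moved the same way in the 3 replicate pairs. The rises were larger, with 241 of 612 risers over 2-fold against 55 of 472 fallers. On day −2, 100 of the risers were above background on none of the 3 arrays, and on day 6 the same held for 20 of the fallers. The control course had 1011 probes higher (4.11%) and 526 lower (2.14%), or 65.8% of its calls higher, a share that was 54.9% after quantile normalization; in the PPARγ siRNA course the share was 56.5% and 52.9%. The median change over all probes was 0.12 under PPARγ siRNA and 0.09 in control, and quantile normalization brought the former to −0.005, so list medians below are to be read against 0.12. List counts are to be read against 2.49% higher and 1.92% lower. Of the 1084 called probes 1017 were above background on at least 3 of the 6 arrays, and of all probes 38.8% were. With replicate 1 left out 330 probes were called and with replicate 2 left out 355, and named genes whose calls were lost in this way are given in the paragraphs on them.

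Part of this movement was also called in control cells. In the same direction, 259 probes rose in both courses, 42.3% of the risers under PPARγ siRNA and 25.6% of the control risers, and 163 fell in both, 34.5% and 31% of the respective fallers. For all 163 shared fallers and for 188 of the 259 shared risers the difference between the courses was not called. In data simulated for probes above background on all arrays, the limma test of this difference found 8 of 100 differences of 0.5 log2 units. Of those of 1 log2 unit it found 89 of 100, so a small difference can go uncalled. Opposite calls were made for 11 probes that rose under PPARγ siRNA and fell in control and for 14 with the reverse pattern. The difference between the courses, tested directly in limma with the arrays of both, was called for 736 probes, of which 514 (2.09%) were lower and 222 (0.902%) higher in the PPARγ siRNA course. Of the 1084 probes, 842 were not called for this difference, 124 were lower and 118 higher.

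**Figure D2:**
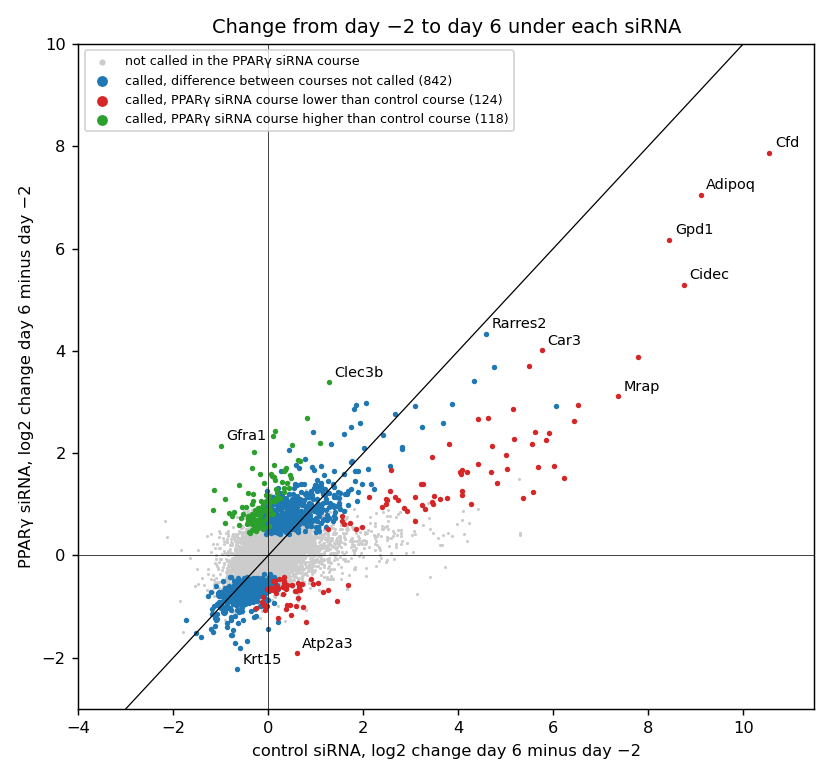
Log2 change from day −2 to day 6 of each probe in the control siRNA course (horizontal) and the PPARγ siRNA course (vertical), with the diagonal of equal change. Blue points (842) were called under PPARγ siRNA without a called difference between the courses, red points (124) rose less or fell more than in control, and green points (118) rose more or fell less.

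Secreted adipocyte products and lipid storage genes had the largest rises. Cfd, which encodes the adipokine complement factor D (adipsin), read 5.03, 4.84 and 5.44 on day −2 and 12.83, 12.85 and 13.26 on day 6. It was below background on all 3 starting arrays, and rose by 7.87 ± 0.12, at least 90.1-fold (limma adjusted p = 8.92e-28). Such a bound sets the day 6 mean against, on each day −2 array, the higher of the probe's own signal and the lowest signal among probes above background. Below background, a log2 change in either course is a fitted value that moves with the background correction. The bounds here and below hold for the main background correction only, and other processing can give smaller folds. For Cfd the log2 change ran from 6.25 to 7.91 over the alternatives tried. Adipoq, the adipokine adiponectin, went from 5.18, 5.03 and 5.98 to 12.50, 12.46 and 12.39, a rise of 7.05 ± 0.56 or at least 62.4-fold (adjusted p = 7.98e-24, limma). Gpd1, the glycerol-3-phosphate dehydrogenase that supplies the backbone of triglyceride, went from 6.58, 6.51 and 6.42 to 12.52, 12.48 and 13.02, a 72.0-fold rise. It was above background on 2 of the 3 day −2 arrays, and its log2 change ran from 5.2 to 6.29 over the alternatives. Cidec, a lipid droplet protein, read 4.91, 4.89 and 5.24 and then 10.13, 10.24 and 10.55, at least 14.1-fold higher. For none of these genes did the days overlap. All 4 rose further in the control course, by 10.55, 9.11, 8.45 and 8.75 in that order, and the differences between the courses of −2.68, −2.05, −2.28 and −3.46 were called, that of Adipoq not without replicate 1 (limma adjusted p = 1) or replicate 2 (0.389).

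On day 6 the level of Cfd under PPARγ siRNA, 12.98, was 15.53 in control, and that of Adipoq was 12.45 against 15.20. The time courses of the pair differed. Adipoq under PPARγ siRNA stayed at 5.53 and 5.63 on days 0 and 1 and stood at 9.47 on day 2 and 10.86 on day 4, whereas in control it was already at 9.94 on day 0. Cfd remained at 5.07 on day 2 and reached 7.50, 10.30 and 12.14 on days 3, 4 and 5, with control values of 13.30, 15.01 and 15.48 on those days. Cidec under PPARγ siRNA reached 9.48 on day 2, read 8.44 on day 4 and 10.31 on day 6.

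The list of adipocyte lipid programme genes had 17 of 37 probes called higher and none lower, with a median of 0.63 (0.12 over all probes). In the control course 26 rose, with a median of 2.50, and 21 of the 37 were called lower for the difference. Among the further members, Mrap, the accessory protein of the ACTH receptor, rose at least 3.04-fold from below background (7.36 log2 units in control), the triglyceride lipase Pnpla2 by 1.64 (4.18) and the triglyceride synthesis enzyme Dgat2 by 1.62 (4.03). Lpl, the lipoprotein lipase that frees fatty acids at the cell surface, rose by 1.82 at the 1 of its 2 probes above background, against 1.74 in control, and the lipase inhibitor Angptl4 rose by 1.84, or 3.58-fold, against 1.77. Neither of these was called for the difference. Fabp4, a fatty acid-binding protein, and Slc2a4, the insulin-responsive glucose transporter, were above background on no PPARγ siRNA array of day −2 and gave differences of 0.31 and 0.63 that were not called, beside 2.50 (not called) and 4.24 (called) in control. The list held 15 called probes whichever replicate was left out.

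The 12 adipocyte marker probes summed to 1339 to 1693 on the PPARγ siRNA arrays of day −2, with 1 or 2 of them above background, and to 17410 to 21510 on day 6, with 5 above background. On the control arrays of day 6 the sum was 111100 to 124500, with 9 to 11 above background. The RNA came from whole cultures, so a smaller fraction of cells that had differentiated and less RNA per differentiated cell cannot be told apart. The 17 fibroblast marker probes, 16 of them above background on every array, summed to between 132300 and 153700 on day −2 and between 206000 and 228100 on day 6 under PPARγ siRNA, while the control arrays gave 182800 to 185300 and 173600 to 192000. Decorin, fibronectin, Pdgfra, vimentin and the type I and III collagens on this list are also members of the matrix, cytoskeleton and preadipocyte lists, and the part of cell makeup in the results for those lists was not tested. Endothelial markers were above background on 0 of 9 probes on all arrays, macrophage markers on 2 of 14, chondrocyte markers on 3 of 10, osteoblast markers on 1 of 7 of the PPARγ siRNA arrays (Spp1), skeletal muscle markers on 0 or 1 of 7 and smooth muscle markers on 5 or 6 of 10.

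Other strong risers were not called for the difference between the courses. Rarres2, the precursor of the adipokine chemerin, read 6.00, 6.46 and 6.09 on day −2, with 1 array above background, and 10.46, 10.65 and 10.44 on day 6, a rise of 4.33 ± 0.14 or 20.2-fold (limma adjusted p = 1.04e-16), which ran from 3.27 to 4.41 over the alternatives tried. In control it rose by 4.58, from 8.83 to 13.42, so that, as for Pparg, a gap of more than 2 log2 units was present at both ends. Sult1a1, a phenol sulfotransferase, went from 5.33, 5.27 and 5.90 to 9.11, 9.30 and 9.16, at least 6.51-fold higher, and the carboxylesterase listed as CES3 from 5.06, 4.98 and 5.66 to 8.47, 8.67 and 8.79, at least 4.47-fold higher. Their control rises were 4.75 and 4.33. On day 6 the means of these 2 genes were 9.19 and 8.65 under PPARγ siRNA, against 11.06 and 12.06 in control. Dpep1, a membrane dipeptidase, went from 8.44, 8.35 and 8.80 to 11.41, 11.59 and 11.57, or 7.93-fold, with a control rise of 2.05. None of the 4 was called for the difference. Car3, a carbonic anhydrase abundant in fat, rose by at least 5.60-fold and BC054059 by at least 5.19-fold, both by less than in control (differences −1.75 and −3.90, that of Car3 not called without replicate 1 or 2). Apoe, apolipoprotein E, rose by at least 3.09-fold, and by 3.87 log2 units in control.

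Complement and acute-phase genes rose as well, with 13 of 33 probes higher, none lower and a median of 0.25. C3, the central complement component, read 9.96, 9.84 and 9.95 on day −2 and 12.85, 12.96 and 12.71 on day 6, a 7.59-fold rise (limma adjusted p = 1.44e-19) beside 3.08 log2 units in control. The 3 probes of C4a, whose sequence is close to that of other C4 genes and 2 of which were below background on day −2, rose by 2.77, 2.35 and 1.40 (the last not called without replicate 1 or 2), with control values of 2.66, 2.42 and 1.97. Haptoglobin (Hp) and the orosomucoid Orm1 rose by 2.70 and 2.42 and by more in control, 4.62 and 5.62, both called for the difference. The list counted 8 called probes without replicate 1.

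**Figure D3:**
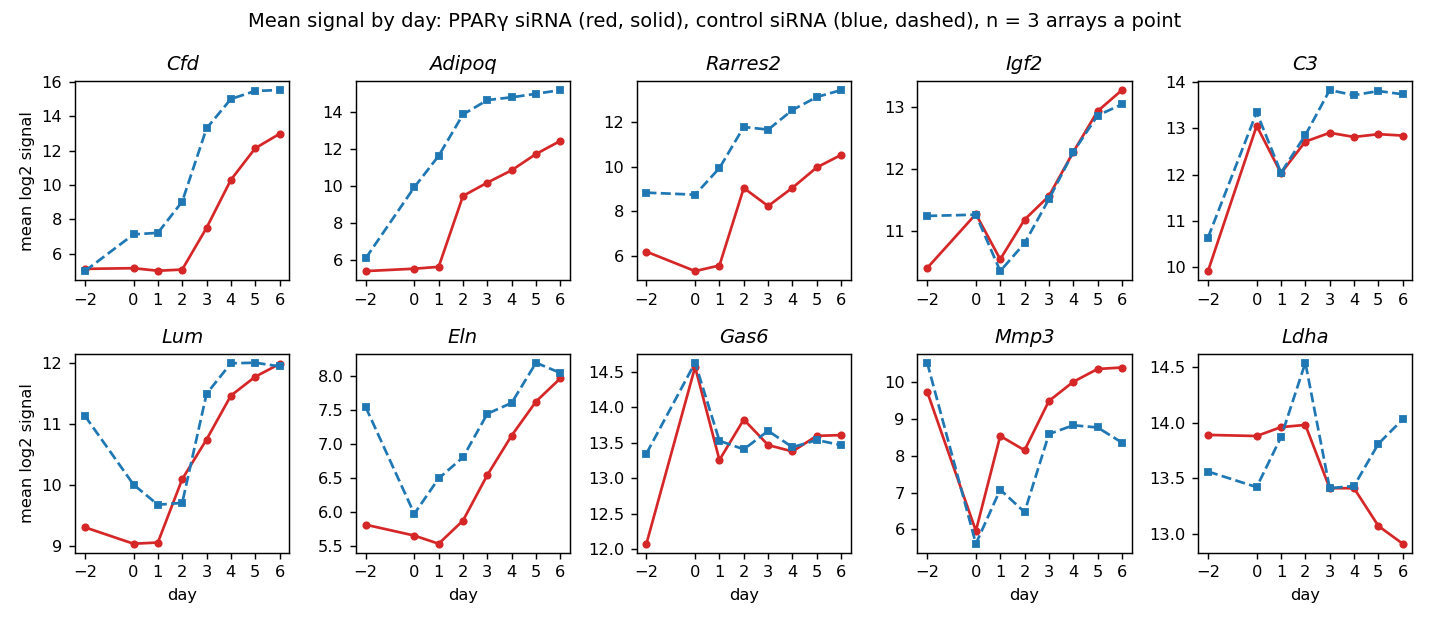
Mean log2 signal on each of the 8 days for 10 genes under PPARγ siRNA (red, solid) and control siRNA (blue, dashed), 3 arrays a point. Cfd and Adipoq climb later and to lower levels under PPARγ siRNA, Lum starts lower (9.31 against 11.14) and ends at the control level (11.99 against 11.95), and Mmp3 ends above control (10.40 against 8.36).

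Matrix genes were the other large group of risers. Of the 58 probes for matrix glycoproteins and basement membrane, 20 rose and 2 fell, with a median of 0.40, while in control 9 rose and 6 fell, with a median of 0.18; the difference was called higher for 9 and lower for 1. Lum, the collagen-binding proteoglycan lumican, read 9.50, 9.65 and 8.79 and then 12.31, 12.39 and 11.29, a rise of 2.68 ± 0.16 or 6.42-fold (limma adjusted p = 3.57e-17) against 0.81 in control. Eln, which encodes elastin, was below background on all day −2 arrays at 5.46, 5.86 and 6.10 and read 7.94, 8.07 and 7.88 on day 6, at least 2.79-fold higher, against 0.50 in control. Mfap4, a microfibril-associated glycoprotein, rose 7.66-fold from 6.69, 6.48 and 7.22 to 9.58, 9.54 and 10.09. Its log2 change ran from 2.23 to 2.97 over the alternatives tried. The days did not overlap for any of the 3 genes, and the difference between the courses was called for Lum (1.88) and Eln (1.65, not without replicate 1 or 2) but not for Mfap4.

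The 4 probes of decorin (Dcn), a small matrix proteoglycan, rose by 0.92 to 1.77 while their control values ran from −0.35 to 0.12. Postn (periostin, at 1 of its 2 probes), Mgp (matrix Gla protein), Dpt (dermatopontin), Mfap5 and Sparc rose by 1.56, 1.40, 1.33, 1.19 and 1.06. For the proteoglycan versican (Vcan), 2 of 3 probes fell, by 0.72 and 0.77, and gave −1.04 and −1.06 in control; neither was called without replicate 1 (limma adjusted p = 1 for both) or replicate 2 (0.49 and 1), and the first not without replicate 3 (0.0539). Among collagens, 8 of 44 probes rose and none fell (median 0.25; 5 rose in control, median 0.13). Col1a2, a chain of the fibrillar type I collagen, rose by 1.07 against 0.10 (difference 0.97, called, but not when any 1 of the 3 replicates was left out), and Col4a2 of the basement membrane by 0.86 against 0.87. Plod2, a collagen lysyl hydroxylase, rose by 1.01 and was not called when replicate 1, 2 or 3 was left out. The collagen count was 3, 2 or 4 without replicates 1, 2 and 3.

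Proteases that act on the matrix rose too: 11 of 34 probes of proteases and their inhibitors were higher and none lower under PPARγ siRNA (median 0.32), against 1 higher and 6 lower in control (median −0.13), and 11 were called higher for the difference. Mmp13, collagenase 3, read 5.28, 5.58 and 6.08, below background, on day −2 and 7.79, 7.54 and 7.68 on day 6, at least 2.27-fold higher, with −0.29 in control. Mmp3, stromelysin 1, read 9.73, 9.63 and 9.84 and then 10.45, 10.46 and 10.30, a difference of 0.67 that was not called (limma adjusted p = 0.11), while in control it fell by 2.17, from 10.53 to 8.36. Mmp2 and the collagen-degrading cathepsin Ctsk rose by 1.07 and 0.65, with control values of −0.15 and −0.37. The call of Ctsk was lost without replicate 1, 2 or 3 (adjusted p = 0.452, 1 and 0.0506). Without replicates 1, 2 and 3 the list had 4, 4 and 6 called probes. Mmp9 was not called without replicate 1 (adjusted p = 0.804) or 2 (0.108), and Timp4, an inhibitor of these enzymes, not without replicate 1 (0.312).

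Growth factor and signalling genes moved in part with the matrix. Igf2, insulin-like growth factor 2, went from 10.25, 10.11 and 10.84 to 13.30, 13.34 and 13.16, a rise of 2.86 ± 0.48 or 7.28-fold (limma adjusted p = 3.83e-15), with 1.80 in control and no called difference. Gas6, the ligand of the TAM receptor tyrosine kinases, went from 11.94, 12.04 and 12.27 to 13.48, 13.64 and 13.71, or 2.88-fold, against 0.12 in control (difference 1.41, called). Tgfb2 rose 2.44-fold, from 9.28, 9.32 and 9.10 to 10.65, 10.75 and 10.17, against 0.17, and Ltbp2, of the family of proteins that bind latent TGFβ, rose 2.86-fold from 12.42, 12.46 and 12.59 to 14.13, 14.07 and 13.83, against 0.47. Each pair of days was separate. In the IGF and growth factor list 7 of 50 probes rose (14%, with 2.49% of all probes, median 0.22), with 9 up and 3 down in control. In the Wnt, TGFβ and BMP list 5 of 64 rose (7.81%, median 0.20), with 1 up and 4 down in control and 7 higher for the difference. Igfbp4, an IGF-binding protein, rose by 1.74 and the preadipocyte-derived growth factor Fgf10 by 1.02; Fgf10 was not called without replicate 2 (adjusted p = 0.139).

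The preadipocyte list, whose members mark the undifferentiated state, had 5 of 30 probes higher, none lower and a median of 0.19, against 1 higher, 3 lower and −0.10 in control, with 4 higher for the difference. Pdgfra, the growth factor receptor used to recognise adipose progenitors, rose by 0.88, from a mean of 11.93 to 12.81, while the control means were 12.40 and 12.30. It was not called without replicate 1 (limma adjusted p = 0.714) or replicate 2 (1), nor was the Notch target Hes1, which rose by 0.75, and the list then held 2 and 1 called probes.

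Other genes with the largest gains relative to control were Gfra1, Clec3b, Col23a1 and Kera. Gfra1, the receptor for the neurotrophic factor GDNF, was below background on day −2 at 5.86, 5.78 and 6.59 and read 8.09, 8.15 and 8.41 on day 6, at least 3.32-fold higher (limma adjusted p = 9.69e-15), whereas it fell by 1.00 in control. Clec3b, the plasminogen-binding protein tetranectin, went from 6.51, 5.74 and 5.83 to 9.38, 9.45 and 9.42, or 10.5-fold with 1 of 3 starting arrays above background and a log2 change of 2.34 to 3.65 over the alternatives tried, against 1.28; the difference was not called without replicate 1 (0.298) or 2 (1). Kera, the proteoglycan keratocan, rose at least 2.51-fold and was below background on the control arrays of day −2 and day 6. On day 0 its mean was 8.57 under PPARγ siRNA and 8.58 in control. The call of Kera was lost without replicate 1 (limma adjusted p = 0.114). Col23a1 rose by 1.27 against a control fall of 1.15 and was not called without replicate 2 (0.477).

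Levels on day −2 were also set beside those of control. Over the 612 risers, the median PPARγ siRNA level lay 0.26 below control on day −2, with 513 probes below, and 0.11 above it on day 6, with 248 below. Among the 118 called higher for the difference, 115 lay below control on day −2 (median −0.52) and 3 on day 6 (median 0.54). For Gas6 the means were 12.08 and 13.35 on day −2 and 13.61 and 13.47 on day 6, and for Eln 5.81 and 7.54, then 7.96 and 8.04. The 612 were chosen by a low day −2 or a high day 6 level under PPARγ siRNA. For the 118, a high control level on day −2 or a low one on day 6 counted as well. Such gaps are thus favoured by the choice of probes, and the counts are a description with no test. By their means, Gas6 and Eln began lower after PPARγ siRNA and ended within 0.2 log2 units of control. Tgfb2 followed the same course, with 9.23 and 10.27 and then 10.52 and 10.44, whereas Gfra1 (6.07 and 7.07, then 8.22 and 6.07) and Mmp3 (9.74 and 10.53, then 10.40 and 8.36) ended above control. Over the 472 fallers the median lay 0.20 above control on day −2, with 65 probes below, and at −0.09 on day 6, with 296 below. The part of the day −2 gap in these changes was not tested.

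Genes of cell division gave the most falling probes among the lists. Of 69 probes for mitosis and cyclins, 18 fell and none rose (median −0.49); in control 17 fell, with a median of −0.48, and none was called for the difference (1 at an unadjusted p under 0.05, lower). Of 56 probes for DNA replication, 8 fell and none rose (median −0.38; 11 fell in control, median −0.44; none called for the difference, with 6 higher and 3 lower at an unadjusted p under 0.05). Foxm1, the transcription factor that drives genes of the G2 and M phases, read 9.73, 9.80 and 9.16 on day −2 and 8.49, 8.82 and 8.06 on day 6, a fall of 2.15-fold (limma SE 0.15, adjusted p = 0.000335) beside −0.92 in control. Cenpa, the centromeric histone, read 12.92, 13.00 and 12.88 and then 12.05, 11.91 and 12.12, or 1.88-fold lower, and Mcm5, a subunit of the replicative helicase, 12.58, 12.64 and 12.34 and then 11.62, 11.64 and 11.44, or 1.94-fold lower. The day 6 arrays lay below the day −2 arrays for all 3 genes. These calls depended on replicate 1: without it no probe of either list was called in limma, although 31 and 30 fell at an unadjusted p under 0.05, and the adjusted p was 1 for Foxm1, 0.0596 for Cenpa and 0.29 for Mcm5. Without replicate 2, 5 mitosis and 1 replication probes were called, and without replicate 3, 19 and 7. The list medians without replicate 1 were −0.36 and −0.37.

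The mean of Foxm1 was 8.29 on day 0, 10.15 on day 1, after the insulin and rosiglitazone cocktail began, 8.98 on day 4 and 8.46 on day 6. Cdc25c, the phosphatase that triggers entry into mitosis, fell by 1.00, Mcm10, a replication initiation factor, by 0.94, and Mcm2, of the same helicase as Mcm5, by 0.69; none of the 3 was called without replicate 1 or without replicate 2. In the list of CDK inhibitors and growth arrest genes 2 of 48 probes rose (4.17%, with 2.49% of all probes) and 4 fell (8.33%, with 1.92%). Their median was 0.10, which was −0.02 after quantile normalization. Ccng1, cyclin G1, fell by 1.26. Ccne1, the cyclin of the G1 to S transition, fell by 0.71 and was not called without replicate 1 or 2.

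Promoter sequences were searched for the division genes called lower under PPARγ siRNA, whatever their control call. None of these calls held without replicate 1. RefSeq windows of 300 bases (250 before to 50 after the start, build GRCm38.p6) were held for 18 of the 22 called genes, as 19 windows. Each was searched on both strands, with overlaps allowed, for CCAAT, the NF-Y box, for TTTGAA, the core of the cell cycle homology element CHR, for GCGGGAA, an E2F site, and for AGGTCA, the half-site of nuclear receptors. In the sequences below, written 5′ to 3′ along the gene, capitals mark these motifs on either strand.
Cenpa, chr5:30666636-30666935, plus strand: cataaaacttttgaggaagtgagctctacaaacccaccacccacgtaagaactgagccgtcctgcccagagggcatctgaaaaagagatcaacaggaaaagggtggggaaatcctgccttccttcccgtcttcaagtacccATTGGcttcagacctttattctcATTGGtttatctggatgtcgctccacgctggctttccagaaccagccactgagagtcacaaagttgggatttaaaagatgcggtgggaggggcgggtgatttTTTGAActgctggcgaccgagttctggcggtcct
Mcm5, chr8:75109259-75109558, plus strand: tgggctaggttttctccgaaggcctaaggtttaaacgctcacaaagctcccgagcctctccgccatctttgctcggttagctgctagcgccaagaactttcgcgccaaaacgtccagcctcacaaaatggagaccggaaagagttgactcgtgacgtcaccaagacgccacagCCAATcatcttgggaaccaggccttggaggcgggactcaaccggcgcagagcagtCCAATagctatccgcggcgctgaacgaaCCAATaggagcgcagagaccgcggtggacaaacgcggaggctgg
Mcm10, chr2:5012742-5013041, minus strand: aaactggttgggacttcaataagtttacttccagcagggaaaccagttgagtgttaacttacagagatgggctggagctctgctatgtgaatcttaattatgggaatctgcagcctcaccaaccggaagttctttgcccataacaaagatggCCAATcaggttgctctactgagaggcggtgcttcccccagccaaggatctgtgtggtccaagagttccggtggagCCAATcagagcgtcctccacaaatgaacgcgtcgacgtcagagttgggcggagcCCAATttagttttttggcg
CCAAT was present in 14 of the 19 windows (73.7%) and in 12289 of all 32851 windows (37.4%), and TTTGAA in 12 (63.2%) against 5878 (17.9%). The windows of Prc1 overlap and hold the same sites, and by gene CCAAT was found for 13 of 18 and TTTGAA for 11. GCGGGAA was found in 2 (10.5%) against 1511 (4.6%) and AGGTCA in 2 (10.5%) against 5340 (16.3%). Of the windows printed, Cenpa held CCAAT at 2 places on the opposite strand and TTTGAA once, and Mcm5 and Mcm10 held CCAAT at 3 places each. All printed windows thus held CCAAT, whereas those of Anln, Birc5, Cdt1, Pold1 and Rfc5 did not. The windows of Birc5 and Rfc5 held none of the motifs searched. A match describes the letters of a window and does not show that a factor binds there.

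Part of the glycolytic genes fell under PPARγ siRNA. Of 25 probes, 7 were lower and none higher (median −0.22), while in control 7 were higher and none lower (median 0.36), and 12 were called lower for the difference. Ldha, lactate dehydrogenase A, read 13.98, 13.94 and 13.75 on day −2 and 12.87, 13.00 and 12.87 on day 6, a fall of 0.97 or 1.97-fold (limma adjusted p = 1.61e-07) against 0.46, not called, in control (difference −1.44, called). Pgk1, phosphoglycerate kinase, went from 14.07, 14.10 and 13.52 to 13.35, 13.26 and 12.96, and Gapdh, the enzyme of the step before, from 14.55, 14.59 and 14.29 to 13.78, 14.05 and 13.77. All day 6 arrays were below all day −2 arrays for these 3 genes. The phosphofructokinases Pfkl and Pfkp fell by 0.59 and 0.96 (control values 1.67 and 0.40), Pkm by 0.47 and Tpi1 by 0.66, with Pfkp and Tpi1 called at 1 of 2 probes, and each of the 7 was called lower for the difference. On day −2 the 3 enzymes first named stood higher under PPARγ siRNA than in control (Ldha 13.89 against 13.56) and on day 6 lower (12.91 against 14.03). Without replicate 1 only 1 probe of the list was called and without replicate 2 only 2; Pgk1 then had an adjusted p of 0.114 and 1, Gapdh of 1 and 0.0947, Pfkp of 0.199 and 0.666 and Tpi1 of 0.287 and 0.0466, and Pfkl and Pkm of 1 in both cases. Only Ldha kept its call in both.

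Contractile and cytoskeletal genes fell in both courses, with 8 of 45 probes lower and none higher under PPARγ siRNA (median −0.40) and 9 lower in control (median −0.44). None was called for the difference in limma, with 7 higher and 2 lower at an unadjusted p under 0.05 and 3 higher with Benjamini-Hochberg adjustment. Pdlim7, an actin-binding LIM domain protein, fell by 0.89, Actn4, an actin crosslinker, by 0.68, and the transcription factor Srf by 0.60. Actn4 was not called without replicate 1 or 2 and Srf not when any 1 of the 3 was left out, and the list then had 1, 2 and 4 calls.

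The single largest fall was that of Krt15, a type I keratin, from 8.16, 8.41 and 7.38 to 5.57, 6.24 and 5.47. It was 4.67-fold (limma adjusted p = 5.31e-07), with 1 of 3 day 6 arrays above background and −0.66 in control. Over the alternatives tried its log2 change ran from −2.46 to −1.37. Atp2a3, a calcium pump of the endoplasmic reticulum, went from 8.79, 8.73 and 8.52 to 7.03, 6.24 and 7.03, or 3.76-fold lower, while its control value was 0.60, and the difference of −2.51 was called; without replicate 1 its adjusted p was 0.0618, and the difference was not called without replicate 1 (0.144) or 2 (0.0634). Both genes were higher than in control on day −2, Krt15 at 7.98 against 6.35 and Atp2a3 at 8.68 against 6.89, and on day 6 they read 5.76 against 5.69 and 6.77 against 7.49. Alox5ap, the activating protein of 5-lipoxygenase, fell 2.86-fold, from 8.16, 8.24 and 8.44 to 6.44, 6.75 and 7.10, and by 1.52 in both courses. Ly6c1, a GPI-anchored surface antigen, read 12.64, 12.66 and 12.61 and then 11.32, 11.26 and 11.36, a fall of 1.32 beside −0.87 in control. Setd7, a lysine methyltransferase, and Abhd2, a serine hydrolase, fell by 1.60 and 1.55, and Sufu, an inhibitor of hedgehog signalling, by 1.45. The other large falls were Mical2 (−1.72), Htra4 (−1.45), Ifitm6 (at least 1.94-fold lower, below background on day 6), Mns1 (−1.37) and Itih2 (−1.29). Mical2, Ifitm6 and Itih2 were not called without replicate 1 or replicate 2, and Htra4 not without replicate 2 (0.265).

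Of 38 probes for transcription factors of adipogenesis 5 rose (13.2%, with 2.49% of all probes), 2 of them probes of Pparg, and 2 fell (5.26%, with 1.92%). The median was 0.17, which was 0.04 after quantile normalization. Of the 38, 25 were above background on at least 3 of the 6 arrays, as were 38.8% of all probes. Cebpa was above background on none of the 6 arrays and its difference of 0.28 was not called, whereas it rose by 1.86 in control and had its highest mean there on day 2, 8.33 (difference −1.58, called, but not without replicate 3, adjusted p = 0.197). Cebpb moved from 12.21 on day −2 to 13.82 on day 0 and back to 12.38 on day 6, so that its change over the whole course was 0.16 and not called, and Cebpd gave −0.27, not called. The liver X receptor Nr1h3 rose by 1.00 against 3.48, Ebf2, an early B-cell factor expressed in preadipocytes, by 1.24 against 1.90 and the related Ebf1 by 0.56. Klf2, which represses Pparg, fell by 0.99 and Rxra, the heterodimer partner of PPARγ, by 0.83. Gata2, another repressor of adipogenesis, gave −0.12, not called, and fell by 1.04 in control (difference 0.92, called, but not without replicate 1 or 2). The list held 2 calls without replicate 1 as without replicate 2. Calls were lost when 1 replicate was left out, Nr1h3 without replicate 1 (adjusted p = 0.321) or 3 (0.831), Ebf2 without replicate 1 (0.219) or 2 (0.43), Rxra without replicate 1 (0.565) or 2 (0.056), Klf2 without replicate 2 (0.127) or 3 (0.0785), and Ebf1 without replicate 1 or 2.

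Other metabolic lists held between 0 and 3 calls each. None of 28 cholesterol synthesis probes was called in limma with Bonferroni adjustment (median −0.07), where 16 rose in control with a median of 0.92 and 16 were called lower for the difference; with Benjamini-Hochberg adjustment 1 was higher and 6 lower, and at an unadjusted p under 0.05 they were 1 and 10. The largest change among them was that of Hsd17b7, 0.52, not called. Of 27 fatty acid oxidation probes none was called (median 0.25; 11 rose in control; 8 higher with Benjamini-Hochberg adjustment, and 13 higher and 1 lower at an unadjusted p under 0.05). In fatty acid and triglyceride synthesis 2 of 21 rose (7 in control), namely the desaturase Scd1 by 1.39 and the lipogenic regulator Thrsp by at least 1.54-fold, against 3.26 and 5.84 log2 units in control. Of 53 oxidative phosphorylation probes 1 rose, the muscle-type cytochrome oxidase subunit Cox8b, at least 1.72-fold (12 rose in control), and of 31 tricarboxylic acid cycle and pyruvate probes 3 rose (14 in control): pyruvate carboxylase Pcx by 1.14, Suclg2 by 1.07 and Idh3a by 0.45. The last of these was not called when any 1 of the 3 replicates was left out, and Suclg2 not without replicate 1 or 2.

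The probes with the largest shortfall against control included 2 that were not called under PPARγ siRNA. The cytochrome oxidase subunit Cox7a1 gave 0.40 against a control rise of 5.31, and the nicotinic acid receptor Hcar2 gave 0.44 against 5.31, both above background on no PPARγ siRNA array. The apolipoprotein Apoc4, also never above background there, was called at 1.24 against 5.57, the kinase Aatk at 1.52 against 6.23 and Ffar2, a receptor for short-chain fatty acids, at 1.75 against 6.02. None of these last 3 was called without replicate 1 (limma adjusted p = 1, 0.452 and 0.0814), and neither Apoc4 nor Aatk (1 and 0.241) without replicate 2.

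Genes of glucocorticoid and cAMP response and of detoxification rose in part. In the former list 9 of 40 probes rose (median 0.24; 10 in control). Hsd11b1, which regenerates active glucocorticoid, went from 7.52, 7.35 and 7.42 to 10.21, 10.34 and 10.31, or 7.24-fold, against 5.15 log2 units in control, a called difference of −2.29. In the antioxidant and glutathione list 10 of 54 rose (median 0.15, with 19 up and 3 down in control). Among them the aldehyde oxidase Aox1 rose by 2.51 (1.73 to 2.58 over the alternatives), with 1 of 3 starting arrays above background. The glutathione transferase Gsta3 rose at least 1.58-fold from below background and the glutathione transferase Mgst1 by 1.30. In control these genes rose by 3.24, 3.80 and 1.75 log2 units, in that order. Of 52 lysosomal probes 9 rose and none fell (median 0.25), where control had 1 up and 2 down, and 5 were higher for the difference. The lysosomal enzymes Tpp1, Neu1 and Gaa rose by 1.33, 1.07 and 0.81. Without replicate 1 or replicate 2 the lysosome list had 4 called probes.

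**Figure D4:**
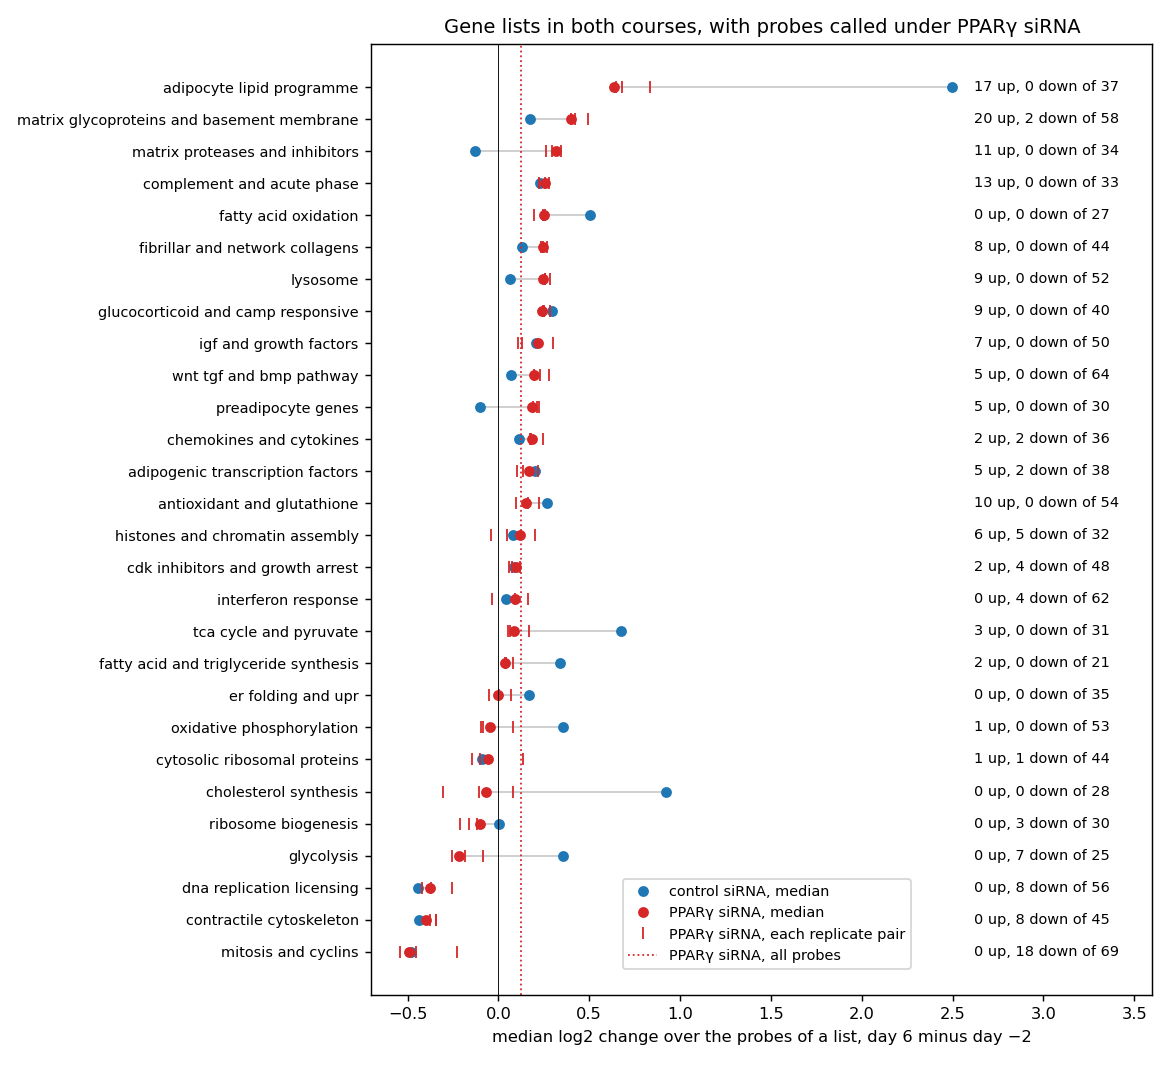
Median log2 change from day −2 to day 6 over the probes of each gene list under PPARγ siRNA (red, with a tick for each replicate pair) and control siRNA (blue), with the number of probes called under PPARγ siRNA at the right. The adipocyte lipid programme (0.63 against 2.50) and cholesterol synthesis (−0.07 against 0.92) are far apart, mitosis and cyclins (−0.49 and −0.48) coincide, and glycolysis lies on opposite sides of 0.

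Among the remaining lists, 6 of 32 histone and chromatin assembly probes rose and 5 fell, and without replicate 1 these were 4 and 0. The risers included the histone H2B genes H2bc11 (1.21), H2bc4 (1.04) and H2bc7 (0.98), near-identical genes whose probes cannot be taken as separate, and the fallers the replication-coupled chaperones Asf1b and Nasp and the maintenance methylation factor Uhrf1, of which none was called without replicate 1. In the chemokine and cytokine list 2 of 36 rose and 2 fell (5.56% each, with 2.49% and 1.92% of all probes). The alarmin Il33 was up by 1.67 against 0.36 in control. Ccl9 and Cxcl1 fell and neither was called without replicate 1 or 2. In the interferon response list 4 of 62 fell (6.45%) and none rose, and 1 faller was left whichever replicate was left out. Among ribosome biogenesis genes 3 of 30 fell (10%) and none rose, with 0 fallers without replicate 1 or 2 and 1 without replicate 3. Among cytosolic ribosomal proteins 1 of 44 rose and 1 fell (2.27% each, near the shares over all probes). None of 35 probes for protein folding and the unfolded protein response was called in limma (8 higher and 6 lower at an unadjusted p under 0.05), and the largest change was that of Edem1, −0.64.

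Taken as medians over the called probes, the changes were built up from day 2 on. Some strong risers were early under PPARγ siRNA. The means on day 0 and day 6 were 13.05 and 12.84 for C3, 11.47 and 11.52 for Dpep1, and 10.27 and 9.19 for Sult1a1. The 612 risers had a median change from day −2 of 0.26 on day 0, 0.07 on day 1, 0.33 on day 2, 0.43 on day 3, 0.66 on day 4, 0.79 on day 5 and 0.90 on day 6. The 472 fallers stood at −0.37 on day 0, −0.01 on day 1, −0.43 on day 4 and −0.68 on day 6. In control cells the same probes reached 0.48 and −0.41 on day 6. These probes were chosen by day 6 against day −2, so their values on those days are a description. Of the risers 82.5% had a control change above 0, where 68.8% of all probes did, and of the fallers 85.8% had one below 0. The mean of Igf2 was 10.54 on day 1, 12.27 on day 4 and 13.27 on day 6, and Lum read 9.06, 11.47 and 11.99 on those days.

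**Figure D5:**
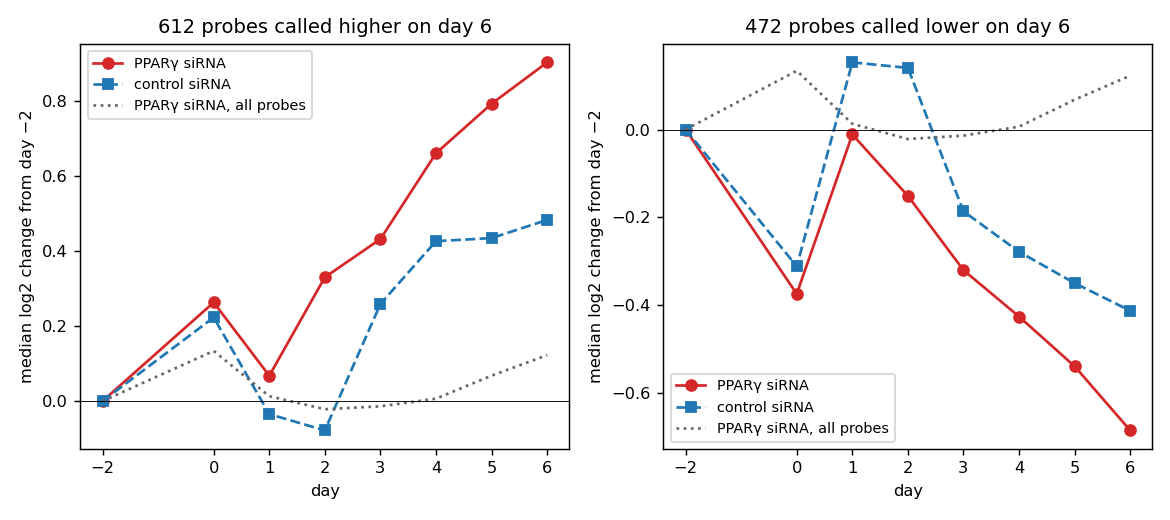
Median log2 change from day −2 on each day for the 612 probes called higher (left) and the 472 called lower (right) on day 6 under PPARγ siRNA, shown for PPARγ siRNA (red), for the same probes in control (blue, dashed) and for all probes (dotted). Both sets come back towards 0 on day 1 and move away from it from day 2 on, and the control medians stay closer to 0 from day 4.

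On the 6 arrays 33.75% to 40.42% of probes were above background, and their number limits the precision. Replicate 3 stood apart from the others: the PPARγ siRNA arrays of replicates 1 and 2 correlated at 0.9959 on day −2 and 0.9947 on day 6 across probes, and each correlated with replicate 3 at 0.937 to 0.957. Replicates 1 and 2 differed by a median of 0.10 to 0.119 log2 units, and from replicate 3 by 0.253 to 0.338. With replicates 1 and 2 averaged as 1, 476 probes were called in the PPARγ siRNA course. The labels call the replicates independent biological ones, and whether replicates 1 and 2 share a culture is not given.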

How the data were processed

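Labelled cRNA from total RNA of 3T3-L1 cells under PPARγ or control siRNA was hybridised to Illumina MouseRef-8 BeadChips. The 48 arrays, in 16 conditions with 3 replicates each, were grouped by the siRNA and day in the labels. The authors deposited the raw mean bead intensity of each probe (15.4 to 67066.3 over the arrays), a detection score as a fraction from 0 to 1 and the number of beads, with medians of 33 to 36 beads per probe. Other deposited columns, such as the spread between beads, were not used. No scaling of the deposited intensity was stated, and medians of 105.1 to 141.7 between arrays go with unscaled values. The detection p is 1 minus the deposited detection score.

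Here, background was corrected by normexp with an offset of 16 (limma 3.58.1, R 4.3.3). Arrays were scaled by the median ratio of rank-invariant probes (ranks between the 50th and 90th percentile that moved by less than 0.05). This was done in the manner of the methods' rank-invariant normalization, and log2 was taken. The study's methods name an analysis of variance with batch as a factor and Bonferroni correction. Accordingly, limma fitted a mean for each of the 16 conditions and the replicate number as a block to all 48 arrays (30 residual degrees of freedom), and a call needed a p of 0.05 or less after Bonferroni correction over 24613 probes. Contrasts were day 6 minus day −2 under PPARγ siRNA, the same in control, and the difference of the 2, in which the arrays of both enter. The methods name a batch without defining it. Here the replicate number stood in for it, and same-numbered arrays of day −2 and day 6 deviated together from their group means (r = 0.686, 0.848 and 0.887 under PPARγ siRNA and 0.843, 0.732 and 0.911 in control). Arrays of replicates 1 and 2 also correlated across numbers (0.706 and 0.739 under PPARγ siRNA), so these values set replicate 3 apart more than they tell replicate 1 from 2.

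Of 18991 target names, 13869 matched a RefSeq symbol (GRCm38.p6), 3473 a synonym, and 1649 kept the name on the array. Levels of different probes were not compared. Genes named were the 12 largest called rises and the 12 largest called falls that went the same way in 3 pairs and were above background on all 3 arrays of the higher day, the 5 largest in each direction among those called in both courses and among those called for the difference, the 3 largest called rises and falls of each list (else its largest change), all adipogenic transcription factors, and Pparg by every probe. A gene with several probes is given by the brightest, and further list members were added after their values were seen. The members and lists were chosen with earlier results of these data known. The fit was tested on simulated data. Figures were drawn with matplotlib 3.10.9. Alternatives were quantile normalization, no background correction, an offset of 50, a filter on dim probes, no block, a fit on the 6 arrays of a course, Benjamini-Hochberg adjustment, other variance estimates, each replicate left out and, chosen after seeing the data, replicates 1 and 2 averaged.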

Additional observations from a re-analysis of the deposited data

Results flagged for a closer look

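The courses differed. The test of the change under PPARγ siRNA against the change under control siRNA was called for 736 of 24613 probes in limma (Bonferroni-adjusted). Of the 133 probes chosen by the naming rule it was called for 43, 18 with the PPARγ siRNA course higher and 25 lower. That rule took some probes by their call in this same test, so the share among named probes is partly fixed by the choice. The values in brackets are the difference between the courses on the log2 scale.

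Lower in the PPARγ siRNA course were the adipokine and lipid storage genes Cfd (−2.68), Adipoq (−2.05), Gpd1 (−2.28), Cidec (−3.46), Mrap (−4.24), Scd1 (−1.87), Thrsp (−3.59) and Pcx (−1.96), the mitochondrial subunits Cox7a1 (−4.91) and Cox8b (−3.53), and the receptors, kinase and apolipoprotein Hcar2 (−4.87), Ffar2 (−4.27), Aatk (−4.71) and Apoc4 (−4.33). The same held for Car3 (−1.75), BC054059 (−3.90), Hsd11b1 (−2.29), Gsta3 (−1.63) and Atp2a3 (−2.51), for the transcription factors Cebpa (−1.58) and Nr1h3 (−2.48) and the Pparg probe that stayed below background under PPARγ siRNA (−2.41), and for the glycolytic enzymes Ldha (−1.44), Pgk1 (−1.28) and Gapdh (−0.96).

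Higher in the PPARγ siRNA course were the matrix genes Lum (1.88), Eln (1.65), Kera (2.29), Col1a2 (0.97) and Col23a1 (2.42), the proteases Mmp3 (2.84) and Mmp13 (2.31), and the signalling genes Gas6 (1.41), Tgfb2 (1.12), Ltbp1 (0.89), Ltbp2 (1.05), Gfra1 (3.15), Pdgfra (0.98) and Il33 (1.31). Further values were those of Clec3b (2.11), Gata2 (0.92), Tpp1 (0.88) and Gaa (0.70). No test of single outlying arrays was run in groups of 3 arrays.

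Not all of these differences were called when a replicate was left out. Without replicate 1 and without replicate 2 alike, Adipoq, Atp2a3, Car3, Clec3b, Col1a2, Eln, Gaa, Gata2, Gsta3, Il33, Kera, Ltbp1, Pdgfra, Tgfb2 and Tpp1 were not called for the difference (adjusted p from 0.0634 to 1, limma), nor were Gapdh (0.678) and the dim Pparg probe (0.198) without replicate 1 and Ltbp2 (0.192) without replicate 2. Without replicate 3 the calls of Cebpa (0.197), Col1a2 (1), Gaa (0.293), Gsta3 (0.339) and Ltbp1 (0.0571) were lost.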

How the results depend on the processing

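The 4 counts (probes called under PPARγ siRNA, in control, for the difference and in both courses the same way; 1084, 1537, 736 and 422) depended on the adjustment, the replicates and the block. Without the replicate block, that is without the pairing, they were 466, 794, 363 and 191, and fitted on the arrays of the comparison alone with the block 207, 318, 286 and 81. Leaving out 1 replicate gave 330 to 782, 668 to 1083, 246 to 518 and 137 to 296, the lowest without replicate 1. Averaging replicates 1 and 2, chosen after seeing the data, gave 476, 851, 342 and 182, and Benjamini-Hochberg adjustment 4513, 4792, 2567 and 1953. Quantile normalization, no background correction, an offset of 50, the filter on dim probes and other variance estimates kept each count within 1.5 times. The share of called probes higher on day 6 under PPARγ siRNA was 56.5%, 84.1% on its own arrays, 76.4% and 69.9% without replicates 1 and 2 and 67.0% with them averaged. Of 102 named probes called in the PPARγ siRNA course none changed direction. Their calls were lost for 31 without the block, 46 on the own arrays, 42, 37 and 10 without replicates 1, 2 and 3, 32 with replicates averaged, 5 without background correction, 4 at the higher offset, 4 with ordinary variances and 1 with a trend. Dim probes move with the offset, since 100 of 612 risers started below background. Of the 43 named probes called for the difference, 17, 16 and 5 lost the call without replicates 1, 2 and 3, 13 without the block, 14 on the own arrays, 15 with replicates averaged, 7 with ordinary variances, and 1 each under quantile normalization and without background correction.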
